A study of Mus musculus with 4 samples.

Results

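The endoplasmic reticulum (ER) genes described here are 40 named genes of protein folding and translocation, of the 55453 genes in the count tables. They were chosen by symbol, and all 40 have rows in the files of all 4 plates. Counts came from wells of mouse embryo material, labelled as single cells, at 2 preimplantation stages, the morula, before a cavity forms, and the blastocyst, in which trophectoderm encloses a cavity and the inner cell mass. The embryos had been injected either with a control morpholino or with a morpholino against NKX1-2, a homeobox transcription factor, so every group carries an injected antisense oligonucleotide and no uninjected group was compared. Each stage was represented by 2 plates of 96 wells, with 48 control and 48 NKX1-2 wells on every plate. The sources used here give neither strain, nor embryo age in hours, nor the embryo of origin of a well, and the 4 plates use the same 96 well barcodes.

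The ER is where secreted and membrane proteins enter the secretory pathway. A nascent chain passes through the Sec61 channel, signal peptidase removes its signal peptide, oligosaccharyltransferase attaches sugars to it, and chaperones, lectins and disulfide isomerases fold it. Unfolded protein activates the sensors Ire1 and Atf6, which raise chaperone genes through the transcription factors XBP1 and ATF6, and chains that fail to fold are sent back to the cytosol for degradation (ERAD). Trophectoderm is an epithelium that transports fluid and takes up and secretes proteins.

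The promoter letters come first, and whether they bear on the changes described below was not tested. The ER stress response element (ERSE), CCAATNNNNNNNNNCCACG, is the element through which ATF6 and XBP1 are known to act on chaperone genes in mammals. It was searched on both strands, as exact matches only, in windows from 250 bases before to 50 bases after each RefSeq gene start (GRCm38.p6). Of 27025 genes with a window, 37 held it, which is 0.137%. Among the 34 members with a window, 8 held it, namely Hspa5, Hsp90b1, Pdia6, Calr, Canx, Dnajc3, Creld2 and Syvn1. The members include chaperone genes by choice, so this share tests no link between the element and the changes. Hsp90b1 was the member with a pair of exact copies, 1 on each strand, which do not overlap. Near copies that differ in any fixed base were not counted, so promoters may hold further ones. The sites are shown with 10 bases on each side, read along the gene's strand, and capitals mark the element, which reads as its reverse complement in Creld2, Calr and the second site of Hsp90b1.
Hspa5: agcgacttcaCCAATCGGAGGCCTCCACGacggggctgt
Hsp90b1, first site: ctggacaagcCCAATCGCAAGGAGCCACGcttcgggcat
Hsp90b1, second site: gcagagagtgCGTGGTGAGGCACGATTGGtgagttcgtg
Pdia6: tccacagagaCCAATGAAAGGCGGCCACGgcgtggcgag
Calr: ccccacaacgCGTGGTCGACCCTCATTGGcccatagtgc
Canx: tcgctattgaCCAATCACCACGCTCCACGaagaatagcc
Dnajc3: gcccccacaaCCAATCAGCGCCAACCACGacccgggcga
Creld2: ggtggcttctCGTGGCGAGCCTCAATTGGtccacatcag
Syvn1: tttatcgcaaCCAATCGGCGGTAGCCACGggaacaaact

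The 250 bases before the start are shown for the most changed chaperone pair, Hspa5 (chr2:34771840-34772089, plus strand) and Hsp90b1 (chr10:86705445-86705694, minus strand), with the same capitals. The Hspa5 element begins 65 bases before the RefSeq start, and those of Hsp90b1 begin 212 and 107 bases before theirs. The GENCODE annotation starts Hspa5 at 34771970 and Hsp90b1 at 86705509, both within the bases shown. By those positions the Hspa5 element lies inside the gene, and those of Hsp90b1 still lie before it.
Hspa5 promoter: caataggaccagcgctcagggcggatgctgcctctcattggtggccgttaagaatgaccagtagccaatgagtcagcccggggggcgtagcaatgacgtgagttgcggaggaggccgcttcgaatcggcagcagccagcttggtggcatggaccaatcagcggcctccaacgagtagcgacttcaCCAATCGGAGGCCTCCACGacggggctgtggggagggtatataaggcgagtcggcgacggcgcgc
Hsp90b1 promoter: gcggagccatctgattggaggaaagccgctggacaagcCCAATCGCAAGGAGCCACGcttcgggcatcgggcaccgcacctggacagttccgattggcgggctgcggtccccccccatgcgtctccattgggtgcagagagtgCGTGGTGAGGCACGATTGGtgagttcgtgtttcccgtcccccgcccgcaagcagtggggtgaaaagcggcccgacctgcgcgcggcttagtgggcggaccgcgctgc

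A shorter element, ERSE-II (ATTGGNCCACG), was found in 12 of the 27025 genes (0.044%). It was held by 2 members, Dnajb11 and Herpud1. The XBP1 element TGACGTGG was found in 0 members with a window and in 0.714% of genes. Xbp1 and Manf are among the members that rose without an ERSE in a searched window, Manf because it has no window in the RefSeq table. A match here describes letters and does not show a bound site.

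After wells below 2000 detected genes were dropped, 368 of 384 remained. Their counts were added up for each plate and morpholino, so that each stage and morpholino had 2 sums and the plate was the replicate. The 8 sums held 1084312 to 2398605 counts. Levels are CPM, a gene's counts scaled to a common library size with TMM factors, and because the labels do not say that plates are separate litters, p-values measure the spread between these plates. In sums of wells, fewer cells of a type and less RNA per cell cannot be told apart. Stage also coincides with plate, so that the spread of 2 plates on each side is the sole measure of plate-to-plate variation. Trophectoderm markers summed to 637 to 679 CPM in morula sums and to 1049 to 1237 CPM in blastocyst sums, over 13 genes, with Gata2, Elf5 or both at 0 in every sum. In control wells 7 of the 10 tested trophectoderm markers rose with stage and 2 fell. The summed inner cell mass markers went from 1143 to 1278 CPM to 431 to 512 CPM over 10 genes. In control wells 5 of the 9 tested fell, led by Klf2 with a mean of 744 CPM in the morula and 106 CPM in the blastocyst, and 3 rose, Spp1, Nanog and Gdf3. Whether these marker changes reflect a shift in cell types, and what part it would have in the results below, was not tested. Cumulus cell markers summed to at most 2.3 CPM and blood cell markers to at most 10.6 CPM.

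The 40 genes together took 0.390% to 0.419% of the counts in the 4 morula sums and 0.445% to 0.528% in the 4 blastocyst sums, with no overlap between the stages. Their summed level was 3555 and 3825 CPM in the control morula sums and 5149 and 5507 CPM in the control blastocyst sums. In NKX1-2 wells it was 3810 and 3811 CPM against 5845 and 5048 CPM. Per kilobase of annotated exon, Ssr2 and Ssr4, subunits of the translocon-associated protein complex, had the highest levels in control morula sums, 159 and 147 CPM per kb. Calr had rank 3 in control blastocyst sums, at 124 CPM per kb. The sensor Ern1 had 0.796 CPM per kb in the morula and 1.04 in the blastocyst. The sources used here do not say whether the deposited counts scale with transcript length.

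**Figure D1:**
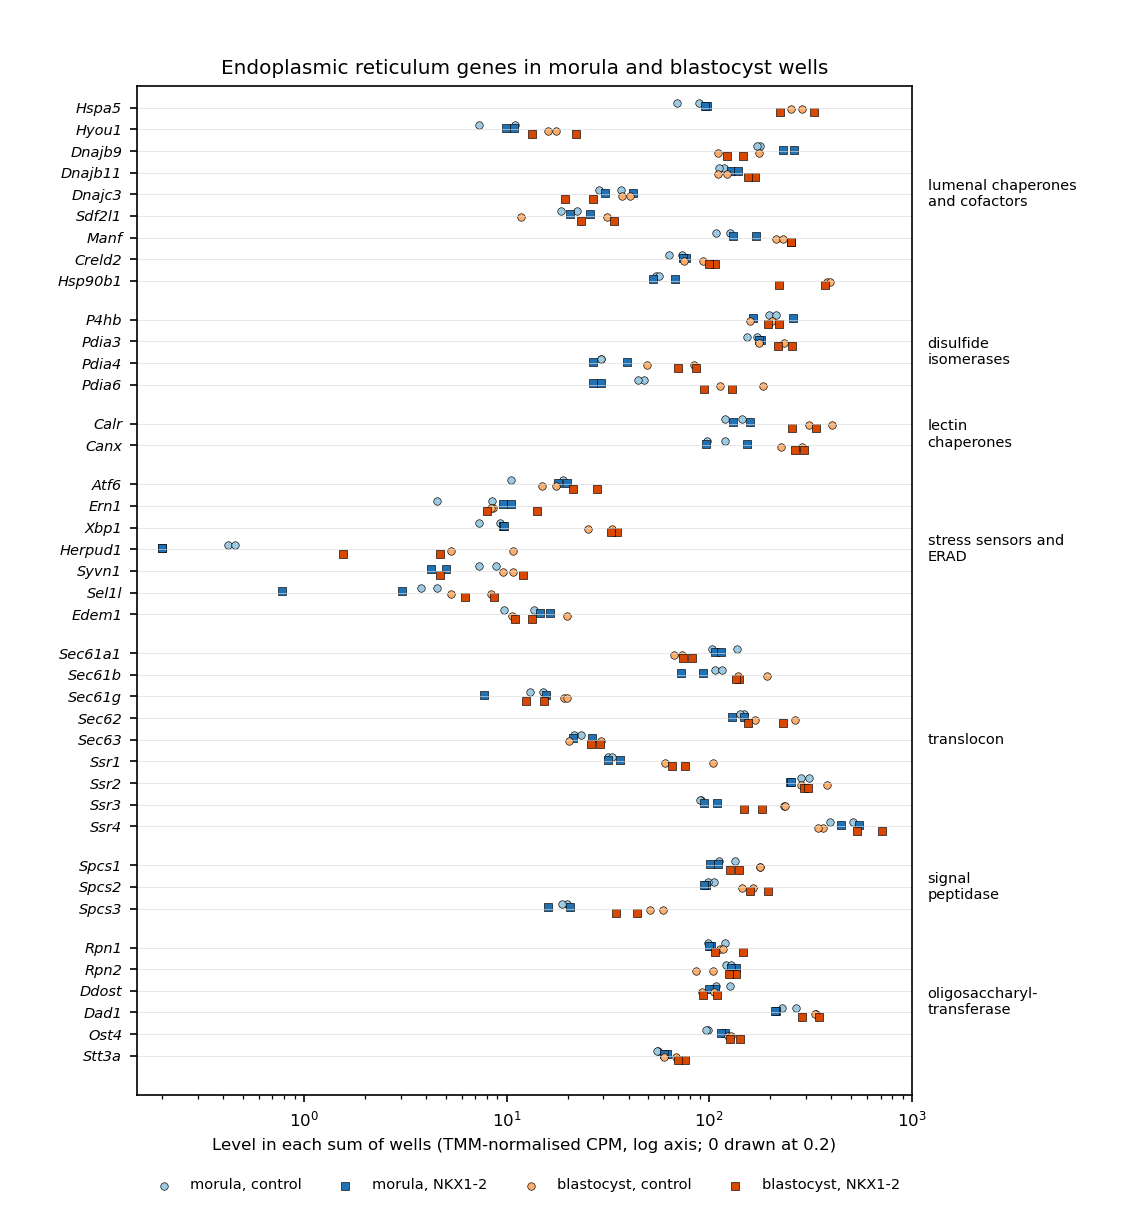
Level of each of the 40 genes (rows, grouped by role) in each of the 8 sums of wells, in TMM-normalised CPM on a log axis, with 2 points per stage and morpholino, 1 per plate. The blastocyst points of Hsp90b1, Hspa5, Pdia6 and Xbp1 lie to the right of every morula point, while those of Sec61a1 lie to the left.

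The first comparison asked how the ER genes differed between blastocyst and morula in control wells. Of the lumenal chaperones and cofactors 3 of 9 rose, led by Hsp90b1 with a 7.02-fold change, as did 2 of 4 disulfide isomerases and both lectins. All 3 signal peptidase subunits and 4 of 9 translocon genes rose as well. In oligosaccharyltransferase the 1 call was a small rise of Dad1, and Sec61a1, the pore of the translocon, fell. Of 38 members tested, 16 rose and 1 fell at an adjusted p under 0.05 (Benjamini-Hochberg adjustment of edgeR's quasi-likelihood test). Over all 9577 genes tested, 20.1% were called higher and 21.6% lower. The median log2 fold change was 0.41 over the members and -0.01 over all genes. Both blastocyst sums lay above both morula sums for 26 of the 40 members and below for 4, and for 10 the groups overlapped. Among the genes tested, 24 of 38 members lay above and 4 below, where 34.1% of all genes lay above and 37.5% below.

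Hsp90b1 (Grp94, the HSP90 chaperone of the ER lumen) had 54.5 and 56.6 CPM in the control morula sums and 380 and 394 CPM in the control blastocyst sums. The groups were far apart, and the log2 fold change was 2.81 (SE 0.20, adjusted p = 5.58e-11). It is encoded on chromosome 10 at 86690209 to 86705509, minus strand, and 12.3% of its 31-base stretches occur in other genes. Hspa5 (BiP, the Hsp70 chaperone that also keeps the stress sensors inactive) had 89.1 and 69.4 CPM in the morula and 252 and 288 CPM in the blastocyst. Its log2 fold change was 1.78 (SE 0.20, adjusted p = 2.75e-07). Hspa5 lies on chromosome 2 at 34771970 to 34777547, plus strand, and shares 0.05% of its stretches. Manf, a secreted ER stress-induced factor that binds BiP, rose from 108 and 127 CPM to 212 and 232 CPM (log2 fold change 0.94, SE 0.19). None of these groups overlapped.

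No call was made for the BiP cofactors by edgeR in control wells. Dnajb9, an ER J-domain protein known to repress Ire1, had 179 and 171 CPM in the morula and 176 and 111 CPM in the blastocyst (adjusted p = 0.293). Dnajb11 had 118 and 112 CPM against 123 and 110 CPM, and its groups overlapped. Dnajc3, Creld2 and Sdf2l1 had log2 fold changes of 0.27, 0.31 and 0.15, none of them called. The exchange factor Hyou1 had 10.98 and 7.30 CPM against 15.99 and 17.6 CPM, which did not overlap, but the change of 0.88 (SE 0.42, adjusted p = 0.0920) was not called.

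Disulfide isomerases were split. Pdia6, which also binds BiP and Ire1, rose from 47.7 and 44.3 CPM to 113 and 184 CPM (log2 fold change 1.71, SE 0.25, adjusted p = 7.41e-06). Pdia4 rose from 29.2 CPM in both morula sums to 49.0 and 84.2 CPM (1.22, SE 0.29, adjusted p = 0.00145). P4hb, the classical disulfide isomerase and a subunit of prolyl hydroxylase, had 197 and 212 CPM against 159 and 204 CPM and was not called, nor was Pdia3, the isomerase that works with the lectins (0.34, adjusted p = 0.175). Pdia4 lost its call when blastocyst plate 2 was left out (0.78). Both lectin chaperones rose. Calr, the soluble one, had 119 and 146 CPM in the morula and 311 and 401 CPM in the blastocyst (1.45, SE 0.19, adjusted p = 2.82e-06), and Canx, its membrane-bound relative, had 120 and 97.2 CPM against 225 and 286 CPM (1.25, SE 0.20, adjusted p = 2.82e-05).

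Of the stress sensors and ERAD genes, Xbp1 changed. The transcript of this factor, which Ire1 splices, had 9.29 and 7.30 CPM in the morula and 33.1 and 25.3 CPM in the blastocyst (log2 fold change 1.80, SE 0.38, adjusted p = 0.000643). Counts per gene do not separate its spliced and unspliced forms. Its sensor Ern1 had 8.45 and 4.56 CPM against 8.53 and 8.42 CPM (adjusted p = 0.572), and Atf6 had 19.0 and 10.5 CPM against 14.9 and 17.6 CPM (adjusted p = 0.782). The ERAD ligase Syvn1 and the mannosidase-like Edem1 were not called either. Herpud1, an ERAD scaffold, was too low to be tested and had 2 counts in both control morula sums together and 19 in the blastocyst sums. That is a ratio of 19.3 relative to the totals (95% exact interval 4.66 to 171, counting error only). Sel1l, the partner of Syvn1, had 19 and 16 counts and was not tested in control wells.

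The translocon held both directions. Sec61a1 had 103 and 137 CPM in the morula and 67.2 and 73.5 CPM in the blastocyst, and its log2 fold change was -0.75 (SE 0.23, adjusted p = 0.0113), and it lost its call without morula plate 2 (-0.57, adjusted p = 0.225). Sec61b, a small subunit of the same channel, rose from 107 and 115 CPM to 192 and 139 CPM (0.58, SE 0.21), and Sec62, which serves short precursors, rose by 0.57 (SE 0.21). Sec61b shares 23.5% of its stretches with other genes. Of the translocon-associated protein complex, Ssr3 rose from 90.8 and 89.9 CPM to 232 and 237 CPM (1.39, SE 0.19, adjusted p = 4.78e-06). Ssr1 rose from 31.7 and 33.3 CPM to 60.8 and 104 CPM (1.37, SE 0.28, adjusted p = 0.000357), but had -0.18 among wells that hold Xist but no Y-linked count. Ssr2, another subunit, had 284 and 310 CPM against 285 and 383 CPM and overlapped, and Ssr4 had 395 and 512 CPM against 366 and 343 CPM (adjusted p = 0.116). Of the 4 subunits of this complex, 2 were called, and the difference between subunits was not tested.

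All 3 signal peptidase genes rose. Spcs3 went from 19.9 and 18.7 CPM to 51.2 and 59.0 CPM (1.53, SE 0.29, adjusted p = 0.000212), Spcs2 by 0.61 and Spcs1 by 0.55. In oligosaccharyltransferase, Dad1 rose from 227 and 267 CPM to 336 and 332 CPM (0.44, SE 0.18, adjusted p = 0.0474). The catalytic Stt3a and the scaffold subunits Rpn2 and Ddost had log2 fold changes of 0.22, -0.36 and -0.23 without a call. Rpn1, which binds ribosomes, had 98.4 and 120 CPM against 113 and 116 CPM (adjusted p = 0.775). Ost4 shares 52.4% of its stretches with other genes, among them Agbl5 on the opposite strand, and is uncertain.

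Calls of small size depended on the settings more than the large ones. Of the 17 called members, 8 were called with the same sign under all 13 alternatives tried, namely Hsp90b1, Hspa5, Pdia6, Calr, Canx, Manf, Xbp1 and Ssr3. Dad1, Sec62, Sec61b, Spcs2 and Spcs1 were called under 4, 5, 6, 6 and 7 of the 13. Without TMM scaling the median of all genes shifted to -0.29. Then 11 members were called higher and 4 lower, and the share of all genes called is not given here.

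**Figure D2:**
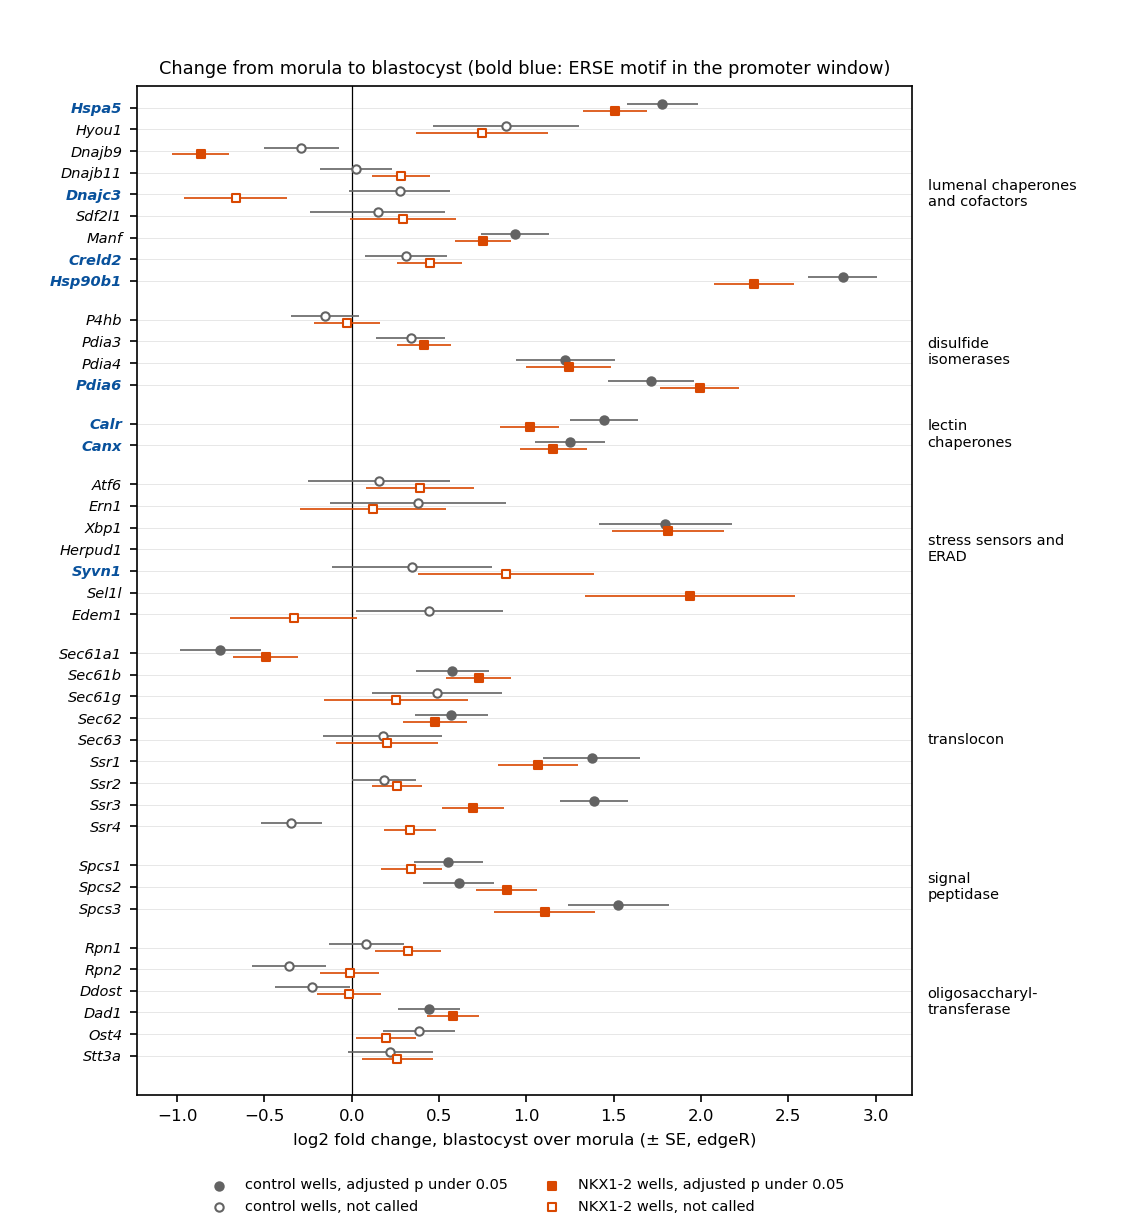
Log2 fold change of each gene from morula to blastocyst (x axis, bars are the standard error of the edgeR fit) in control wells (grey circles) and NKX1-2 wells (orange squares), filled where the adjusted p was under 0.05, with names of the 8 ERSE genes in bold blue. Both fits place Hsp90b1 farthest to the right, at 2.81 and 2.31, and 5 of the 8 ERSE genes were called higher in both.

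The ERSE genes were compared by their values. In control wells the 8 had a median log2 fold change of 1.35, all above 0, and 5 were called higher, against a median of 0.38 and 9 of 24 called higher among tested members with a window and no ERSE. Dnajc3, Creld2 and Syvn1 carried the element without a call. Outside the members, 5 genes with an ERSE were tested in control wells and 1 rose, Hnrnpa3, an RNA-binding protein (2.99, SE 0.20). No test of this contrast between lists was made.

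Other genes of the same pathways moved in both directions. In control wells, 6 of 16 tested genes of signal recognition and translocation rose and 1 fell. Sec61a2, the second isoform of the Sec61 pore, had means of 3.52 CPM in the morula and 16.2 CPM in the blastocyst (2.19, SE 0.48). Sec61a2 and Srp54a (3.45 CPM in the morula) could pass the filter on low counts only with blastocyst sums. Genes this low in the morula were thus tested only if higher in the blastocyst. Srp54a rose by 1.55, although it shares 72.5% of its stretches, and Srprb, a subunit of the signal recognition particle receptor, changed by -0.60. Of 16 tested genes that insert tail-anchored and other membrane proteins, 1 rose, Emc1 (1.23), and 5 fell, led by Bag6 (-1.69, SE 0.24) and Emc3 (-0.96). Emc1 shares 29.6% of its stretches. Of 19 genes of N-glycan synthesis and further oligosaccharyltransferase subunits, 6 rose, led by Ostc (1.32, SE 0.22) and Alg1 (1.15), and 3 fell, led by Dolk (-2.25) and Mpdu1 (-0.56). Dolk (4.05 CPM in the blastocyst) could pass the filter only with morula sums.

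Of 36 further folding genes, 10 rose and 4 fell. The proline isomerase Ppib rose from 12.6 to 159 CPM (3.66, SE 0.28, adjusted p = 3.78e-10) with 37.0% shared stretches, and Cnpy2 rose by 2.13, while Fkbp10, a collagen chaperone, changed by -3.22 (SE 0.47) and Mogs, the first glucosidase of N-glycan trimming, by -1.27. Of 16 further ERAD genes 7 rose and 0 fell, led by Rnf5 (1.75) and Edem3 (1.65), and 6 listed ERAD genes had no morula rows with counts. Of 15 further stress sensors and targets, Atp2a2, the ER calcium pump, rose by 1.14 and Selenok by 0.98, while Trib3 (-2.19) and Atf6b (-1.51) fell. Over these 6 lists together, 32 of 118 tested genes rose and 15 fell, with a median of 0.11.

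In NKX1-2 wells the stages were compared in a separate fit. Of 39 members tested, 17 rose and 2 fell, where 21.9% of 10221 genes were called higher and 24% lower. Hsp90b1 had 67.5 and 52.5 CPM in the morula and 374 and 221 CPM in the blastocyst (log2 fold change 2.31, SE 0.23, adjusted p = 1.49e-06). Hspa5 had 97.4 and 95.3 CPM against 327 and 223 CPM (1.51, SE 0.18). Pdia6 rose from 26.8 and 29.2 CPM to 129 and 94.3 CPM (1.99, SE 0.23). Xbp1 rose from 9.58 and 9.72 CPM to 35.3 and 32.8 CPM (1.81, SE 0.32). None of these 4 overlapped between the stages.

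Dnajb9 fell in NKX1-2 wells, from 232 and 262 CPM to 122 and 147 CPM (-0.87, SE 0.16, adjusted p = 0.000316). Sec61a1 fell by 0.49 (SE 0.19, adjusted p = 0.0376). Sel1l passed the filter on low counts here and was called higher (1.94, SE 0.60, adjusted p = 0.0133). It had 8 and 2 counts in the morula sums and 8 and 13 in the blastocyst sums. With these counts Sel1l could pass the filter only with blastocyst sums, so its call is no support for a rise. It is among the 17 members called higher. Herpud1 had 0 counts in the NKX1-2 morula sums and 9 in the blastocyst. With the morula set at 3 counts over the group, the ratio relative to the totals was 5.61. The counting error of the 9 blastocyst counts is not part of this ratio. Ssr1 (1.07), Ssr3 (0.70), Spcs3 (1.11), Spcs2 (0.89), Dad1 (0.58), Calr (1.02), Canx (1.15), Pdia4 (1.24), Manf (0.75), Sec61b (0.73), Sec62 (0.48) and Pdia3 (0.41) made up the rest of the members called higher. Of the 19 calls, 8 held under all alternatives tried, those of Hspa5, Dnajb9, Hsp90b1, Pdia6, Calr, Xbp1, Ssr1 and Spcs2. Pdia3 and Sec62 were called under 5 of 13, Sec61a1 under 7 of 13 and Sel1l under 7 of 11. Fits with 1 plate left out had 1 sum at 1 of the stages, and the share of all genes called in them is not given here. Their counts of calls are therefore no result about the members.

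The same pathway lists in NKX1-2 wells gave 35 of 121 genes higher and 19 lower. In translocation, Sec61a2 (1.75) and Srp72 (1.05) rose and Tmed2 (-0.67) and Srprb (-0.61) fell. In membrane insertion, Emc1 (1.78) and Mmgt1 (1.02) rose and Sgta (-1.13) and Bag6 (-0.96) fell. In N-glycan synthesis, Alg1 (1.69) and Alg14 (1.58) rose and Dolk (-1.25) and Mpdu1 (-0.82) fell. Among folding genes, Ppib (3.05) and Tmx4 (2.45) rose and Fkbp10 (-3.16) and Mogs (-2.67) fell. In ERAD, Rnf5 (2.00) and Erlec1 (1.56) rose. Among stress genes, Selenok (0.82) and Atp2a2 (0.81) rose and Trib3 (-1.80) and Creb3l3 (mean 5.98 CPM in the morula and 0 CPM in the blastocyst) fell. Sec61a2, Tmx4 and Erlec1 (4.24, 4.45 and 2.89 CPM in the morula) could pass the filter on low counts only with blastocyst sums. Fkbp10, Mogs and Creb3l3 could pass it only with morula sums.

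The next comparisons set NKX1-2 wells beside control wells of the same plates. Few did. In the morula 0 of 39 tested members were called by edgeR, where 0.552% of 10873 genes were. At an unadjusted p under 0.05 there were 4 members by edgeR and by limma voom and 0 by DESeq2, where 10.7%, 11.8% and 1.55% of all genes reached it, so the members' count was near the background. The 4 were Dnajb9 (log2 fold change 0.49), Manf (0.36), Pdia6 (-0.72) and Sec61b (-0.43). All 4 were called in the fit of the morula plates alone, for which the share of all genes called is not given here. Pdia6 had 47.7 and 44.3 CPM in control sums and 26.8 and 29.2 CPM in NKX1-2 sums of the morula, without overlap, with an adjusted p of 0.307.

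In the blastocyst 1 of 39 members was called, Ssr4, where 0.727% of all genes were. Over both stages Ssr4 was again the 1 member called, where 2.9% of genes were. Ssr4 encodes the delta subunit of the translocon-associated protein complex, lies on the X chromosome at 73787028 to 73790830, plus strand, and shares none of its stretches with other genes. It had 366 and 343 CPM in control blastocyst sums and 711 and 538 CPM in NKX1-2 blastocyst sums, without overlap. Its log2 fold change was 0.80 (SE 0.12, adjusted p = 0.00681), and in the morula it was 0.13 (SE 0.12, adjusted p = 0.770). Over both stages it was 0.47 (SE 0.08, adjusted p = 0.00697), higher in 4 of 4 plates, and it was not called by DESeq2 (adjusted p = 0.0511) or without morula plate 1 (adjusted p = 0.0832).

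The share of wells that hold Xist, the X-inactivation RNA, but no Y-linked count differed between the morpholinos, in opposite directions at the 2 stages. Such wells were 15 of 43 control and 35 of 47 NKX1-2 wells on blastocyst plate 1, and 6 of 43 and 20 of 44 on plate 2. In the morula they were 25 of 48 control and 10 of 48 NKX1-2 wells on plate 1, and 27 of 48 and 23 of 47 on plate 2. Both Xist and Y-linked counts occurred in 19 of 43 control and 22 of 44 NKX1-2 wells of blastocyst plate 2. In each other set 4 to 8 wells held both. These counts do not give the sex of such mixed wells, and the reason for the mixture was not tested. The 364 tested X-linked genes had a median log2 fold change of 0.18 in the blastocyst, with 10 higher and 0 lower, and of -0.09 in the morula. Among wells with Xist but no Y-linked count, the value of Ssr4 in the blastocyst was 0.50 (SE 0.19, adjusted p = 0.468). In the morula it was 0.49 (SE 0.18, adjusted p = 0.618), and the X-linked median was -0.02 in the blastocyst. Over both stages, 6 members named in any case were not called. Hspa5 had 0.14, Xbp1 0.23, Atf6 0.49, Ern1 0.48, Sec61a1 0.02 and Rpn1 0.00, with adjusted p of 0.629, 0.669, 0.308, 0.484, 0.978 and 1. Without blastocyst plate 2, Hspa5 was called (0.33, adjusted p = 0.0218). Of 123 tested genes of the other pathway lists, Serp1 (0.49), Mpdu1 (0.50) and Man1b1 (0.88) were called higher and Emc9 (-1.14) and Mcfd2 (-0.64) lower.

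The difference of the morpholino effect between the stages was called for 0 of 39 members by edgeR, by limma voom and by DESeq2, where 0.0184% of genes were called by edgeR. At an unadjusted p under 0.05 there were 3, 3 and 1 members, where 6.43%, 6.39% and 0.901% of all genes reached it, so that this count too was near the background. The 3 by edgeR were Ssr4 (0.67, SE 0.17, adjusted p = 0.335), Ssr3 (-0.69, SE 0.22) and Dnajc3 (-0.93, SE 0.35). Without blastocyst plate 1, Ssr4, Ssr3, Calr and Hsp90b1 were called, and without plate 2 Ssr4 and Dnajb9.

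The 2 blastocyst plates gave different values for many members. In blastocyst plate 1 the median difference between NKX1-2 and control over 39 members was 0.20 on the log2 scale, with 28 above 0, while in plate 2 it was -0.11, with 15 above 0. The medians over all genes lay between -0.00835 and 0 in the 4 plates. Hspa5 was 0.38 higher in NKX1-2 wells of blastocyst plate 1 and 0.37 lower in plate 2, and Hsp90b1 had -0.02 and -0.83. When blastocyst plate 1 was left out, Hsp90b1 (-0.83), Calr (-0.65), Pdia6 (-0.95) and Ssr3 (-0.67) were called lower in NKX1-2 wells. When plate 2 was left out they were not called, and Sdf2l1 (1.52) was called higher. A lone blastocyst plate was then assumed to vary like the morula plates. Of the 40 members, 3 were higher in NKX1-2 wells in 0 plates, 10 in 1 plate, 10 in 2 plates, 8 in 3 and 9 in all 4. Among all genes tested, 12.2% were higher in all 4. The members higher in all 4 were Dnajb11, Manf, Creld2, Pdia3, Xbp1, Ssr4, Rpn2, Ost4 and Stt3a.

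**Figure D3:**
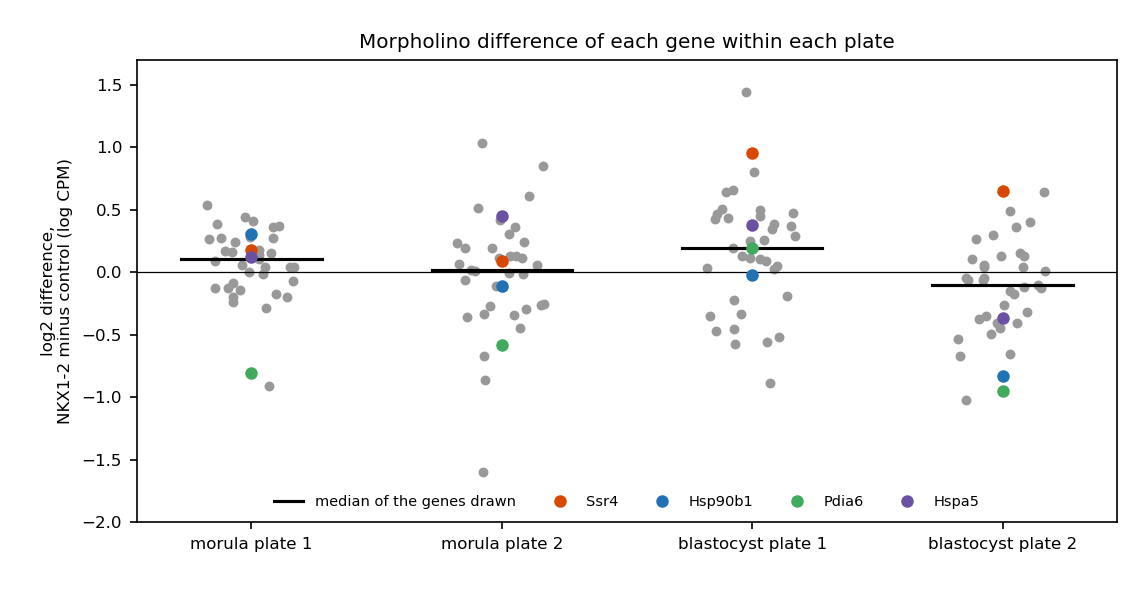
Log2 difference between NKX1-2 and control sums within each plate (log CPM with a prior count of 2) for 39 genes, Herpud1 left out for its low counts, with a bar at the median and Ssr4, Hsp90b1, Pdia6 and Hspa5 in colour. Ssr4 is above 0 in all 4 plates, and Hspa5 has opposite signs in the 2 blastocyst plates.

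Single wells showed how the chaperones varied within a stage. The median share of counts in the 40 genes was 0.390% to 0.418% per well in the 4 morula sets of a plate and morpholino, and 0.428% to 0.504% in the 4 blastocyst sets. Its SD between wells was 0.040 to 0.064 percentage points in the morula and 0.102 to 0.153 in the blastocyst. Thinned to 10000 counts per well, the SD was 0.060 to 0.092 in the morula and 0.106 to 0.160 in the blastocyst, where counting alone gives 0.062 to 0.073 in all sets. The shares ranged from 0.306% to 1.12% among the 47 NKX1-2 wells of blastocyst plate 1.

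Hspa5 and Hsp90b1 varied together from well to well in the blastocyst. Across the 43 control wells of blastocyst plate 1, Hspa5 ranged from 0 to 572 CPM with a median of 154, and Hsp90b1 from 0 to 1489 CPM with a median of 215. Spearman's rho between them was 0.70 there, 0.70 in the 47 NKX1-2 wells of that plate, 0.62 in the 43 control and 0.67 in the 44 NKX1-2 wells of blastocyst plate 2. In the 4 morula sets rho was between -0.11 and 0.17. Wells of a set share a plate and may share embryos, so the correlations are descriptions.

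**Figure D4:**
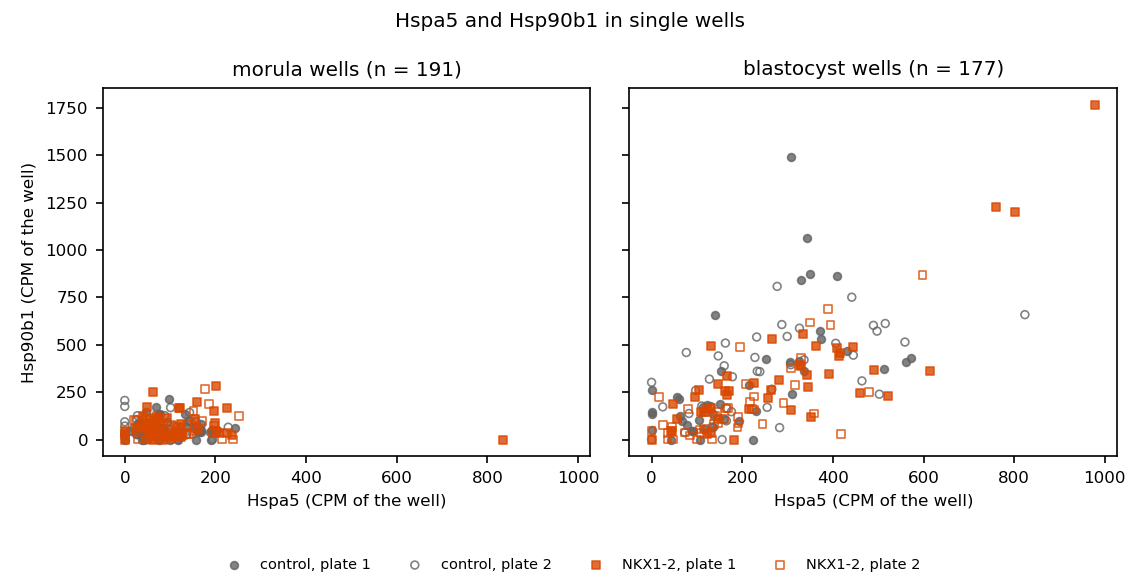
CPM of Hspa5 (x axis) and Hsp90b1 (y axis) in each kept well, on linear axes that both panels share, for 191 morula wells (left) and 177 blastocyst wells (right), with the morpholino as colour and shape and plate 2 as open symbols. Blastocyst wells spread along a rising band, while morula wells stay in the lower left except for 1 NKX1-2 well at 834 CPM of Hspa5.

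Every gene with a mean of at least 1 count per well in all 4 blastocyst sets, 3043 genes, was ranked by its lowest rho with Hspa5 over those sets, a rule chosen after the data were seen. Hsp90b1 ranked first and Calr second (rho 0.53 to 0.68). Manf ranked 4th (0.34 to 0.66), Pdia4 6th (0.31 to 0.55) and Pdia6 10th (0.27 to 0.62), so that 5 of the first 12 genes were members, of 26 members ranked. Arpc5, a subunit of the actin nucleator Arp2/3, had rank 3 (0.37 to 0.47). Canx had a rho of 0.13 to 0.20. Of the translocon genes, Sec61a1 (-0.19 to 0.08) and Sec62 (-0.17 to -0.01) were near 0. Ssr1 (0.13 to 0.23), Ssr2 (0.0005 to 0.29), Ssr3 (0.06 to 0.43) and Ssr4 (0.08 to 0.29) were above 0 in all 4 sets. So were 16 of the 26 members ranked, where 20.2% of all genes ranked were. Dnajb9 ranked 2986th, with rho between -0.47 and -0.09. In the morula Calr had the values nearest to a relation among these, 0.11 to 0.30, and 0 members were among the first 12 of 4705 genes.

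Morula wells held fewer counts of some of these genes, so the blastocyst counts were also thinned, gene by gene, to the mean count per well of the morula plate with the same number. Hsp90b1 had 2.58 to 3.67 counts per morula well and 7.52 to 11.98 per blastocyst well. After thinning, its rho with Hspa5 in the blastocyst was 0.42 to 0.70, still above the morula range. Manf, with 5.31 to 9.30 counts per morula well, had 0.40 to 0.63 after thinning against -0.22 to -0.02 in the morula. The other 3 genes overlapped between the stages after thinning. Calr had 0.22 to 0.68 against 0.11 to 0.30, Pdia6 0.27 to 0.44 against 0.04 to 0.30, and Pdia4 0.13 to 0.49 against -0.05 to 0.23. Hspa5 itself had a rho with the well's total counts of 0.02 to 0.40 and with summed trophectoderm markers of 0.02 to 0.40 in the blastocyst sets. With primitive endoderm markers it had 0.12 to 0.26, and with inner cell mass markers -0.23 to 0.25. Their part in the co-variation was not tested.

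**Figure D5:**
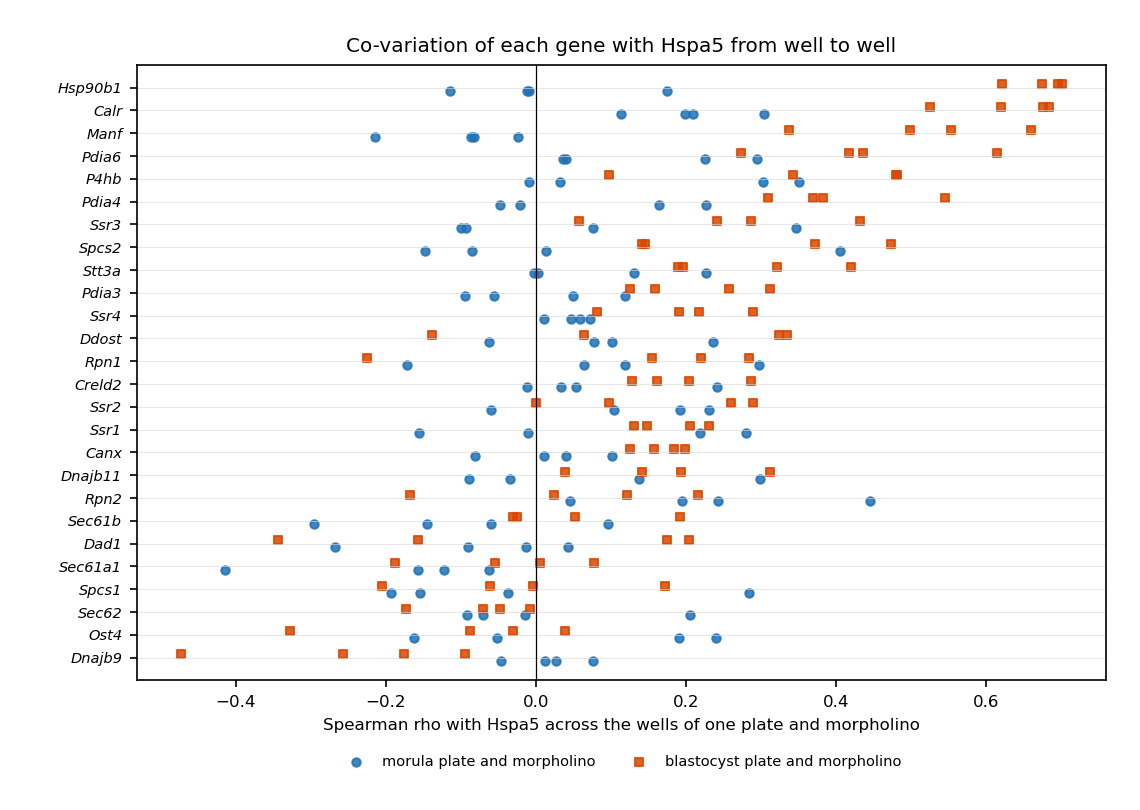
Spearman's rho of each gene with Hspa5 across the wells of 1 plate and morpholino (x axis), with 4 orange squares for blastocyst sets and 4 blue circles for morula sets, for the 26 members with a mean of at least 1 count per well in all blastocyst sets, ordered by the blastocyst median. For Hsp90b1, Calr, Manf and Pdia4 all 4 squares lie to the right of all 4 circles, and narrowly so for Canx, Pdia3 and Ssr4. Dnajb9 has all 4 squares below 0.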

How the data were processed

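Whole-number counts per gene and well barcode were deposited by the authors, without normalization. A deposited table gives the morpholino of each barcode. Per the submitters' processing notes, the tools and builds include TopHat2, mm10 and GRCm38. The sources used here do not give the counting tool, the strand setting or any use of molecular identifiers. Members, lists and tests were chosen with earlier results of these data known. Every called member was named, and Hspa5, Xbp1, Atf6, Ern1, Sec61a1 and Rpn1 in any case. Of each other pathway list, the 2 most changed called genes in each direction were named.

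Wells with at least 2000 detected genes were summed per plate and morpholino. A block of 344 genes without morula counts, which holds 0 members, was left out. Robust quasi-likelihood tests (edgeR 4.0.16, R 4.3.3) used filterByExpr, TMM and Benjamini-Hochberg adjustment over all genes, with 0.05 as threshold. Stage fits used the 4 sums of a morpholino. Morpholino effects came from 1 model over the 8 sums that blocks on plate, since both morpholinos share each plate by design. Across stages, deviations of same-numbered plates correlated at 0.04 (control) and -0.01 (NKX1-2). Sums that share a plate gave 0.28 in the morula and 0.0065 in the blastocyst. This measure therefore cannot decide whether plate numbers pair samples across stages, and the labels do not say so. Alternatives were RLE size factors, DESeq2 1.42.0, limma 3.58.1 voom, no filter, other well filters, each plate left out, and the block added or removed. Scaling without TMM and wells that hold Xist but no Y-linked count were added after seeing the data. The fits were tested on simulated data. Sequence windows are RefSeq's (GRCm38.p6), and 33 of 35 were found forward in the gene's own transcripts. Shared stretches of 31 bases, gene positions and exon lengths come from GENCODE M21 transcripts (GRCm38). Intervals cover counting error only. Well-level values used pandas 2.3.3, scipy 1.17.1 and numpy 2.4.6 under Python 3.11.15, and matplotlib 3.10.9 drew the plots. Doublets were not called.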

Additional observations from a re-analysis of the deposited data

How the results depend on the processing

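Counts of called members changed with single plates and with the tool. Stage calls in control wells numbered 17, with 12 by DESeq2, 16 by limma voom and 12 to 16 with 1 plate left out. In NKX1-2 wells they numbered 19, with 15 by DESeq2, 18 by limma voom and 10 to 17. With the replicate block, the stage fits called 17 and 19 members, and without the plate block the morpholino fits called 0, 1, 1 and 0, so the block changed no count. With 1 plate left out, morpholino calls ranged from 0 to 4 in the morula, 1 to 5 in the blastocyst, 0 to 8 over both stages and 0 to 4 for the difference. The morula plates fitted alone gave 4. The share of all genes called under these alternatives is not given here, so the counts describe settings and are no result about the members. Over both stages DESeq2 gave 0 and no filter on low counts gave 2. In wells that hold Xist but no Y-linked count, added after seeing the data, 9 members were called by stage in control wells, and 0 by morpholino in the blastocyst and over both stages. The log2 ratio of the summed level was 0.53 and 0.52, and 0.27 and 0.26 without TMM.

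Signs turned for some values. By stage in control wells, with 1 plate left out, Atf6 ranged from -0.24 to 0.62, Ern1 from -0.0196 to 0.87 and Rpn1 from -0.0789 to 0.20. Without TMM, Atf6 had -0.13 and Rpn1 -0.19. Rpn1 had -0.0442 without a filter and -0.44 in Xist wells, where Ssr1 had -0.18. By morpholino over both stages, with 1 plate left out, Hspa5 ranged from -0.04 to 0.33, Sec61a1 from -0.0486 to 0.11 and Rpn1 from -0.12 to 0.13. In Xist wells Hspa5 had -0.0799 and Sec61a1 -0.0908. The cause was not tested. Low counts of Herpud1 and Sel1l limit what can be seen of them.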
